A study of Mus musculus with 10 samples.

Results

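The collagen genes of mouse right atrium were followed in RNA-seq libraries from 10 mice, 4 labelled control and 6 labelled Tbx5 mutant. They were taken as every gene of the count table whose symbol is Col, a number, a and a number, which gave 43 of 23337 genes, and 34 of the 43 passed the filter on low counts that left 13084 genes for testing. In the mice labelled Tbx5 mutant, exon 3 of Tbx5 was to be cut out by a Cre recombinase that tamoxifen switches on and that the R26 promoter, which is active in all cell types, drives. Tamoxifen was injected at 0.167 mg per day for 3 days and tissue was taken 1 week later. The control mice are labelled only as control, and the labels do not say whether they carried the Cre or a floxed allele. The same tamoxifen dose and timing are listed for their samples, though no label states of the control mice in particular that they received it. All mice are given as of mixed strain, and as 8 to 10 weeks old in one label and 6 to 8 weeks in another. The study compared the groups to ask which atrial transcripts depend on TBX5, a T-box transcription factor of the heart.

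Collagens are the main structural proteins of the extracellular matrix. Each molecule is a triple helix of chains that are built from repeats of glycine and any pair of other residues, and the chains of one type are encoded by separate genes. Fibrillar collagens form the tensile fibres of the heart, collagen IV forms the sheet of the basement membrane around cardiomyocytes and vessels, collagen VI forms beaded filaments beside cells, and the FACIT collagens sit on the surface of fibrils. In the heart, fibroblasts are the best known source of fibrillar collagen, and vessel wall and endothelial cells make much of the basement membrane.

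The libraries held between 5703775 and 7095141 counts. Rn45s, a ribosomal RNA precursor, took 38.9% of the counts in mutant M3 and at most 1.49% in any other library. Tbx5 itself went against the labels, at 205 ± 17.8 CPM (SD, n = 4) in the control mice and higher, 394 ± 83.3 CPM (SD, n = 6), in those labelled Tbx5 mutant. CPM here are counts scaled to a library of 1000000. The counts cover the whole gene, so the deleted exon cannot be seen. Ryr2, the calcium release channel of cardiomyocytes, was at 5328 ± 564 CPM (SD, n = 4) in control mice and 1701 ± 469 CPM (SD, n = 6) in the others (edgeR adjusted p = 2.99e-05), and Sln, an inhibitor of their calcium pump, at 1823 ± 244 and 927 ± 164 CPM (edgeR adjusted p = 0.000264). Both are known in the field as genes that TBX5 activates, and at both each mouse labelled Tbx5 mutant was below all control mice. Every direction below is given relative to the labels. Xist reads were abundant in the control mice labelled male and nearly absent in those labelled female, against their sex labels, while the mice labelled Tbx5 mutant matched theirs. Cardiomyocyte markers summed to 73711 to 87565 CPM in control mice and to 58710 to 72650 CPM in the others, so that each of these was below all control mice. Most of this sum was Nppa, at 26827 ± 1745 and 17114 ± 5453 CPM, and Myh6. Myh6 was not lower, at 24102 ± 5619 and 25813 ± 3679 CPM (edgeR adjusted p = 0.711). Of the 8 markers, 4 were called lower (Nppa, Myl7, Sln and Ryr2) and 2 higher (Tnnt2 and Actc1).

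Genes count as called below where the quasi-likelihood test of edgeR gave a p under 0.05 after Benjamini-Hochberg adjustment, the fold change was over 1.5 and the authors' normalized signal averaged over 1 in the control mice. Of the 34 collagen genes tested, 17 were called higher and 3 were called lower in the mice labelled Tbx5 mutant. Over all genes tested, 8.5% were called higher and 7.16% were called lower. Another 2 collagens, Col4a5 and Col4a6, passed the adjusted p with a fold under 1.5, which made 22 past the adjusted p against 31.3% of all genes, and 12 did not pass it. The median log2 fold change of the collagens tested was 0.65, and that of all genes was -0.00495. To pass the filter, a gene needed enough reads in as many libraries as the smaller group holds, whichever group they came from. Neither the count nor the median of the 34 therefore describes all 43. Called members were found in the fibrillar, collagen IV, collagen VI, collagen VIII, FACIT and multiplexin classes among the higher genes, and Col13a1, Col20a1 and Col7a1 were the lower ones.

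**Figure D1:**
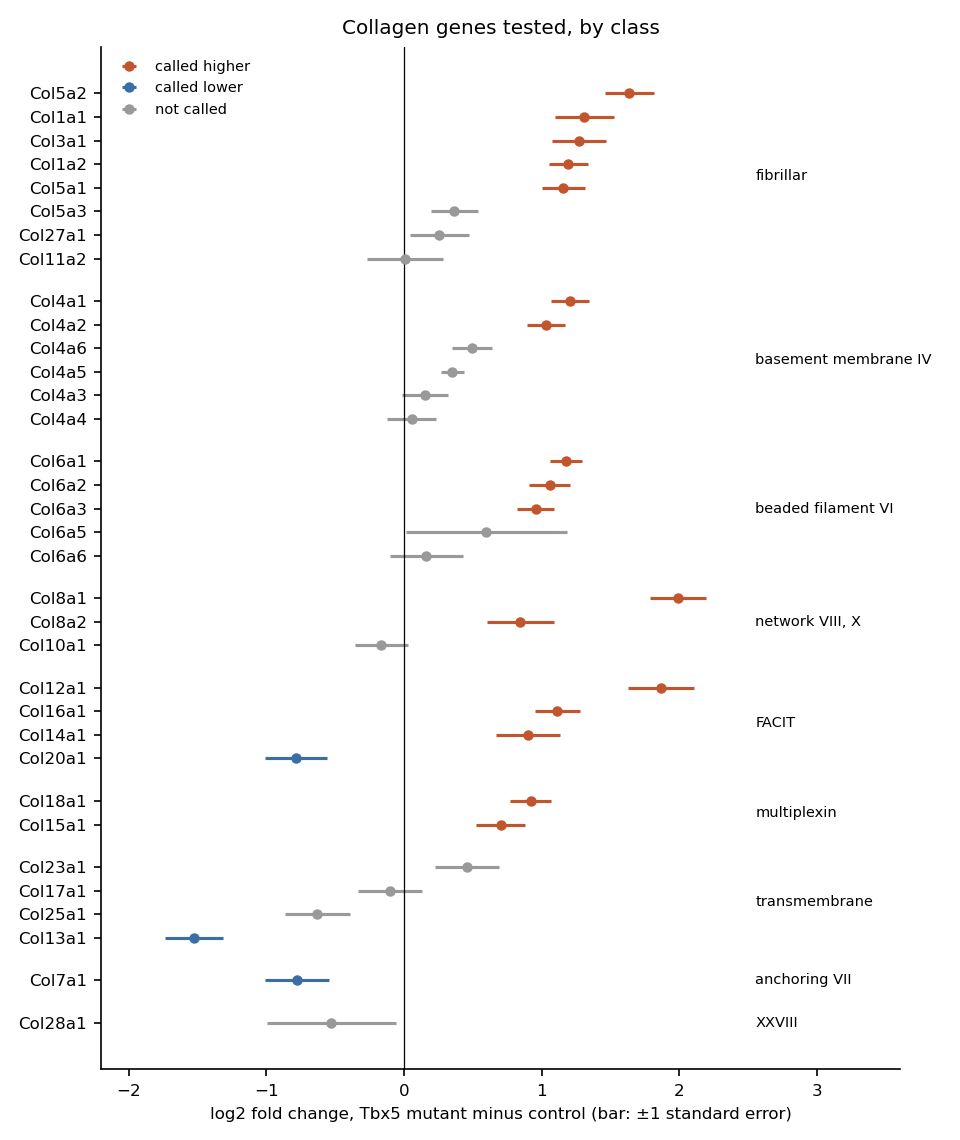
Log2 fold change of the 34 collagen genes tested (x axis, mice labelled Tbx5 mutant minus control, with 1 standard error), grouped by class from top to bottom. The 17 genes called higher lie between 0.70 and 1.99, and the 3 called lower lie between -1.52 and -0.78.

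The 2 groups did not overlap at 17 of the 34 genes. At 15 of them every mouse labelled Tbx5 mutant was above every control mouse, as were 11.7% of all genes tested. At 2 of them, Col13a1 and Col7a1, every such mouse was below, as were 11% of all genes. In tissue RNA, more cells of one type and more RNA per cell cannot be told apart.

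The share of reads on the whole family separated the groups, with each mouse labelled Tbx5 mutant above all control mice. Outside Rn45s, collagen reads made up 0.491%, 0.49%, 0.34% and 0.358% of the counts in control M1, M2, F1 and F2. In the mice labelled Tbx5 mutant the share had a lowest value of 0.802%, a median of 0.901% and a highest of 1.38%. The highest belonged to mutant M2, and the other 5 mice lay at or below 0.952%. A few genes made most of this signal, since the 5 collagens with most reads held 66.2% ± 1.16 (SD, n = 4) of collagen reads in control mice and 70.6% ± 1.25 (SD, n = 6) in the others. Col3a1 alone held 34.8% ± 3.37 and 38.5% ± 2.12 of them. These shares are given without a test.

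**Figure D2:**
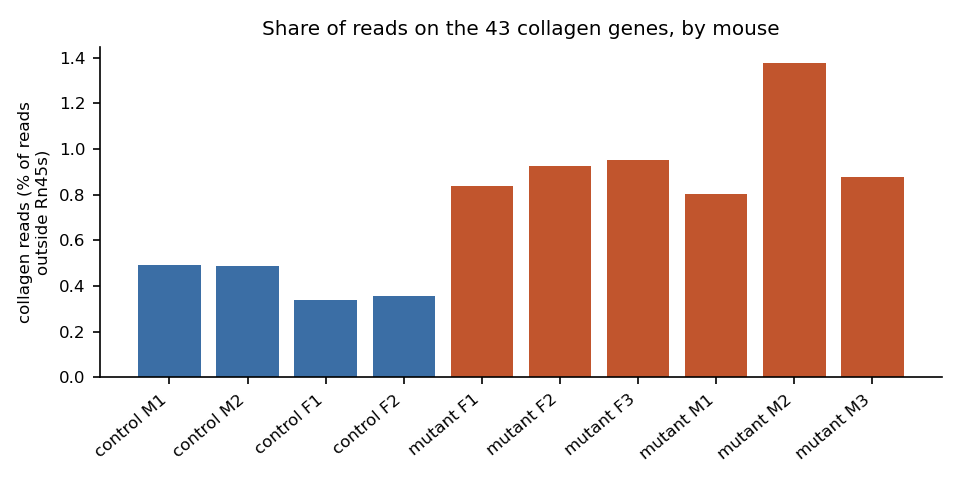
Reads on the 43 collagen genes as a percentage of all reads outside Rn45s (y axis) in each of the 10 mice (x axis), bars starting at 0. The 4 control mice lie between 0.34% and 0.491% and the 6 mice labelled Tbx5 mutant between 0.802% and 1.38%.

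Levels of different genes were set side by side per kb of the longest annotated transcript. Col3a1, the chain of collagen III, had the highest level, at 258 ± 69.3 CPM per kb (SD, n = 4) in control mice and 622 ± 136 CPM per kb (SD, n = 6) in mice labelled Tbx5 mutant. Col1a2 followed at 73.0 ± 8.04 and 167 ± 31.5 CPM per kb, and then Col4a1 at 69.1 ± 5.83 and 159 ± 27.9 CPM per kb. The first 4 genes, Col3a1, Col1a2, Col4a1 and Col4a2, stood in the same order in both groups. In the control order, 3 of 42 neighbouring pairs had ranges that did not overlap, namely Col3a1 above Col1a2, Col4a1 above Col4a2 and Col6a3 above Col8a1. The ranges of the other neighbours overlapped. Whether neighbours differed within each mouse was not tested. Some places in the order differed between the groups: Col5a2 was number 11 in control mice and number 8 in the others, Col12a1 was number 27 and number 22, and Col13a1 was number 25 and number 31. These levels are a description, with no test between genes.

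**Figure D3:**
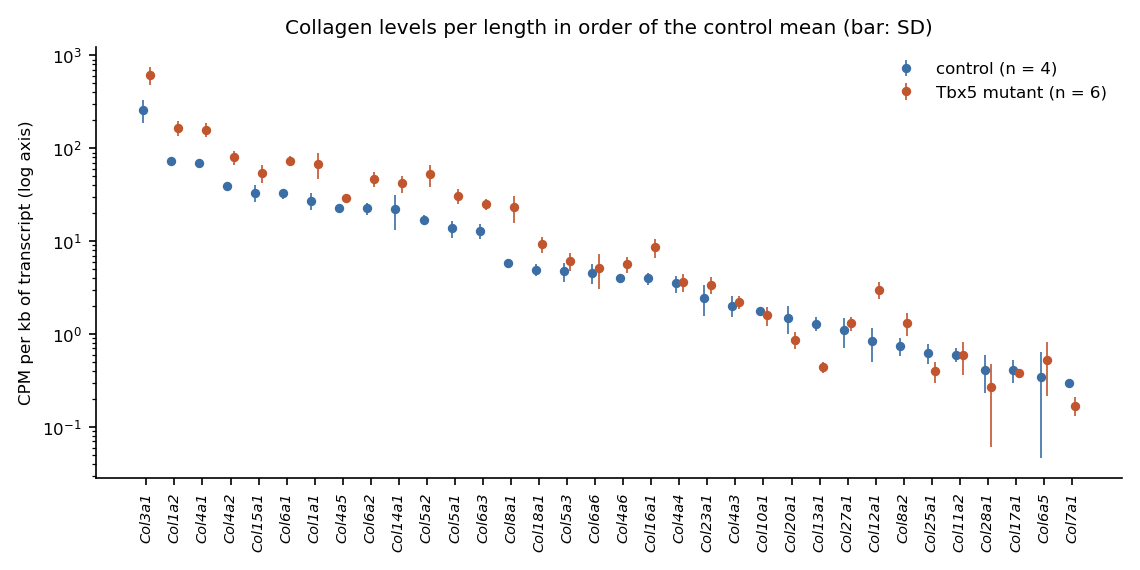
Level of the 34 most abundant collagens per kb of transcript (y axis, CPM per kb, log axis) in the order of the control mean (x axis), as the mean with its SD. Levels ran from 258 CPM per kb at Col3a1 to 0.294 CPM per kb at Col7a1 in the 4 control mice.

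The fibrillar genes Col1a1, Col1a2, Col3a1, Col5a1 and Col5a2 were called higher. Collagen I, the main tensile collagen, joins a pair of Col1a1 chains to a single Col1a2 chain, and collagen III is made of Col3a1 alone. Col3a1 stood at 1822, 1706, 1132 and 1072 CPM in control M1, M2, F1 and F2, and at a lowest of 2962, a median of 3200 and a highest of 4962 CPM in the mice labelled Tbx5 mutant. The control mice labelled male were above those labelled female, and all 6 of the other group were above both. The log2 fold change was 1.27 ± 0.198 (SE; edgeR adjusted p = 0.00036), or 2.41-fold.

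Col1a1 stood at 170, 206, 131 and 140 CPM in the control mice and at a lowest of 282, a median of 366 and a highest of 608 CPM in the mice labelled Tbx5 mutant. It was 2.48-fold higher, at a log2 fold change of 1.31 ± 0.213 (SE; edgeR adjusted p = 0.000502). Col1a2 stood at 423, 430, 365 and 343 CPM against a lowest of 737, a median of 827 and a highest of 1210 CPM. Its log2 fold change was 1.19 ± 0.143 (SE; edgeR adjusted p = 4.94e-05). The groups overlapped at neither gene. Per length, the ratio of Col1a1 to Col1a2 was 0.371 ± 0.0446 (SD, n = 4) in control mice and 0.398 ± 0.0584 (SD, n = 6) in the others, a difference within the spread (two-sided exact permutation p = 0.448, adjusted over 3 chain ratios p = 0.448). Reads per length of mRNA do not give the ratio of chains in the protein.

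Collagen V is a minor collagen that sits inside collagen I fibrils and sets their width. Col5a2 showed the highest fold of the fibrillar genes tested, with 128, 119, 96.1 and 105 CPM in the control mice and a lowest of 264, a median of 322 and a highest of 519 CPM in the mice labelled Tbx5 mutant. This came to a log2 fold change of 1.64 ± 0.177 (SE; edgeR adjusted p = 2.09e-05). Col5a1 had 141, 131, 88.1 and 100 CPM against a lowest of 212, a median of 246 and a highest of 340 CPM, at a log2 fold change of 1.16 ± 0.157 (SE; edgeR adjusted p = 0.00013). Both were separated without overlap. Col5a3, the third collagen V chain, had 29.0 ± 6.59 and 37.2 ± 8.18 CPM and did not pass the test (log2 fold change 0.37, edgeR adjusted p = 0.123). Col27a1 and Col11a2 did not pass either, at log2 fold changes of 0.26 and 0.01 (edgeR adjusted p = 0.38 and 0.986). Col11a1, Col24a1 and Col2a1, fibrillar collagens best known from cartilage and bone, had too few reads to be tested. Col2a1 had no read in any control library and at most 2 in any other, Col11a1 had at most 1 and 2 reads, and Col24a1 had at most 5 reads in a control library and 4 to 8 in the others.

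**Figure D4:**
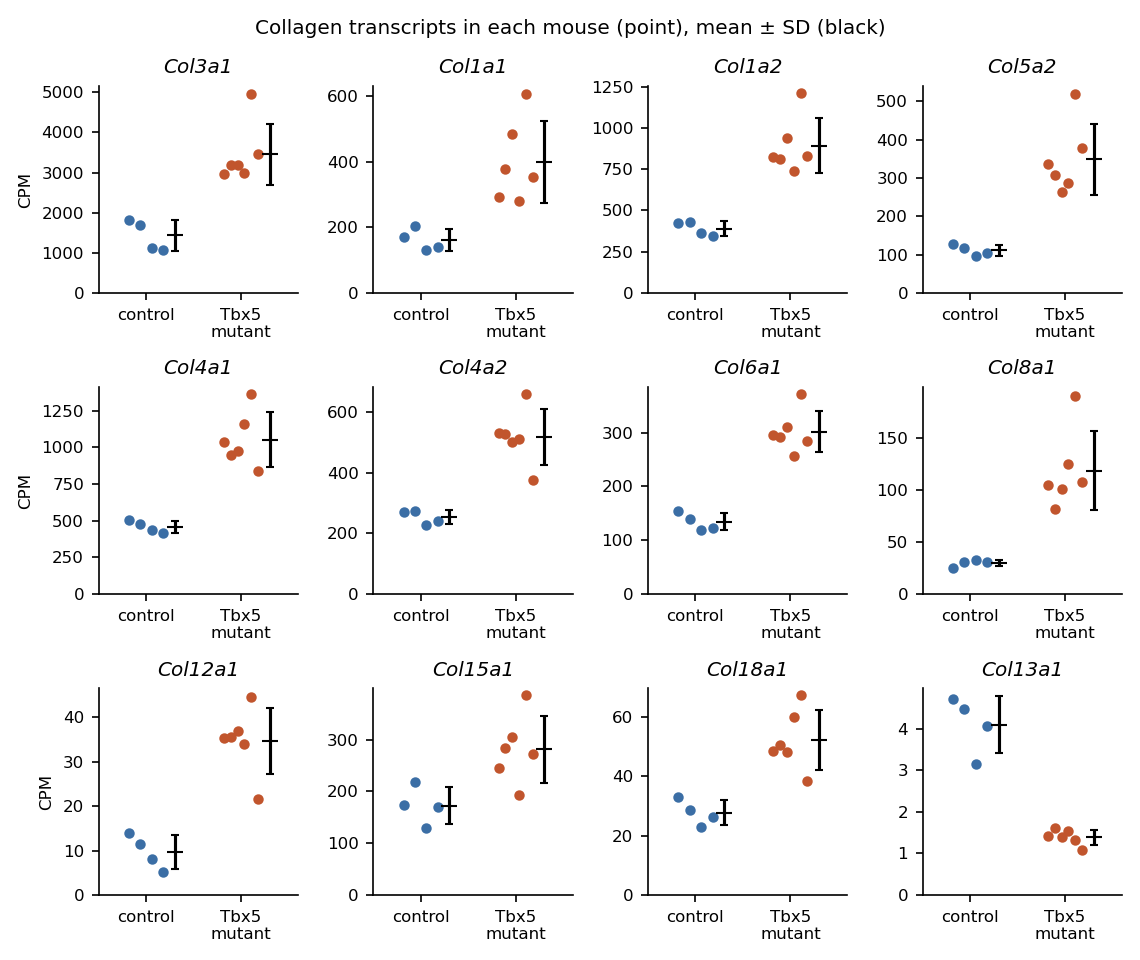
CPM of 12 collagen genes (y axes, starting at 0) in each mouse (points), with the mean and SD in black, for 4 control mice and 6 mice labelled Tbx5 mutant. The groups are apart in each panel but that of Col15a1, and Col13a1 is the panel in which the control mice are the higher ones.

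Collagen IV has 6 chains that pair in 3 head-to-head gene couples, and they are taken here couple by couple. Col4a1 and Col4a2, which form the network found in nearly every basement membrane, were both called higher. Col4a1 stood at 501, 476, 438 and 414 CPM in the control mice and at a lowest of 839, a median of 1006 and a highest of 1363 CPM in the mice labelled Tbx5 mutant (log2 fold change 1.20 ± 0.137, SE; edgeR adjusted p = 3.37e-05). Col4a2 stood at 272, 274, 229 and 241 CPM against a lowest of 376, a median of 520 and a highest of 662 CPM (log2 fold change 1.03 ± 0.136, SE; edgeR adjusted p = 0.000103). The 4 control mice were close together at both genes, and all 6 other mice were above them. Their ratio per length was 1.76 ± 0.0874 (SD, n = 4) and 1.99 ± 0.176 (SD, n = 6), and the difference did not pass after adjustment over the 3 ratios (two-sided exact permutation p = 0.0476, adjusted p = 0.143).

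Col4a5 and Col4a6, the couple on the X chromosome, differed with a smaller fold. Col4a5 had 148 ± 9.81 and 188 ± 13.8 CPM (log2 fold change 0.35, edgeR adjusted p = 0.00739), without overlap. Col4a6 had 26.6 ± 2.66 and 37.3 ± 7.19 CPM (log2 fold change 0.49, edgeR adjusted p = 0.0192), with mutant M1 inside the control range. Col4a3 and Col4a4, best known from the basement membrane of the kidney glomerulus, had log2 fold changes of 0.15 and 0.05 and did not pass (edgeR adjusted p = 0.514 and 0.839).

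The positions of these couples are given in mouse build mm10, which the submitters' processing notes name, from the GENCODE M21 annotation. Col4a1 lies on the minus strand at chr8:11198423-11312826 and Col4a2 on the plus strand at chr8:11312805-11449287, so their start sites are 21 bases apart and the 2 annotations overlap. Reads in the overlap cannot be told apart where counting did not use strand, which the sources used here do not give. The start sites of Col4a3 and Col4a4 on chromosome 1 are 72 bases apart, and those of Col4a5 and Col4a6 on chromosome X 1309 bases apart. Col3a1 (chr1:45311538-45349706, plus strand) and Col5a2 (chr1:45374321-45503282, minus strand) lie tail to tail with 24614 bases between them. Col6a1 and Col6a2 lie on the same strand of chromosome 10.

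Promoter sequences were taken from RefSeq (GRCm38.p6, the same build as mm10) as 250 bases before and 50 bases after the start. They were found for 35 of the 43 genes. Those of Col4a1 and Col4a2 are shown because the windows of this head-to-head couple overlap in part and both genes were called, that of Col1a2 because it held the only T-box motif among the called collagens with an entry, and that of Col3a1 as the most abundant member. Capitals mark any of 4 motifs found on either strand, so some capitals read as the reverse complement of a motif. The T-box motif was searched as the letters AGGTGT. The box named after its letters CCAAT was searched as these letters. The GC box was searched as the letters GGGCGG and the TATA box as the letters TATAAA. Matches of different motifs may overlap. The windows are chr8:11312777-11313076 (minus strand), chr8:11312555-11312854 (plus strand), chr6:4505368-4505667 (plus strand) and chr1:45311288-45311587 (plus strand), each written 5′ to 3′ along its gene.
Col4a1: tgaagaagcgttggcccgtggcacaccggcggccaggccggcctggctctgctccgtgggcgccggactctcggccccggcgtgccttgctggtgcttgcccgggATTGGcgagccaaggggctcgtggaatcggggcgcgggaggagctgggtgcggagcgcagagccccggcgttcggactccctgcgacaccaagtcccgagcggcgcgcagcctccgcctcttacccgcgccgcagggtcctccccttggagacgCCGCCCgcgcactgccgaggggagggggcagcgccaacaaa
Col4a2: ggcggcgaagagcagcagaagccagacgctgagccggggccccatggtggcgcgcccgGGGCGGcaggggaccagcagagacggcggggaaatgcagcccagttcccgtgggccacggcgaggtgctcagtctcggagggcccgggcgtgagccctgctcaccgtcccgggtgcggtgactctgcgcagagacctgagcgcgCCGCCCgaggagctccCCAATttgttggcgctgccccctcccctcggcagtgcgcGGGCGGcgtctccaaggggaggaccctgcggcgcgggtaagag
Col1a2: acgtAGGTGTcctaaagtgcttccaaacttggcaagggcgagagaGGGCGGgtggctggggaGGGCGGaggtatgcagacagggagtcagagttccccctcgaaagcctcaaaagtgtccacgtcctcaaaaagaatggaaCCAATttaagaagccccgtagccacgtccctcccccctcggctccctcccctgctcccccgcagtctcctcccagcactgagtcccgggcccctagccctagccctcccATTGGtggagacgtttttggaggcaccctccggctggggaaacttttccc
Col3a1: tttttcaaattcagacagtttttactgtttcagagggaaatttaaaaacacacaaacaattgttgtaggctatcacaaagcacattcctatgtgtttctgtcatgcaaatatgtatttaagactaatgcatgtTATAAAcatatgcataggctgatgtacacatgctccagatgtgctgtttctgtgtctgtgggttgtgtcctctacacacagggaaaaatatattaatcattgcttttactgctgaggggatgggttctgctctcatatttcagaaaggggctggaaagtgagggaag
The T-box motif was found in 3 of 38 collagen promoter windows (7.89%), those of Col1a2, Col24a1 and Col6a4, and in 13.7% of all 32851 windows of this length. The GC box was found in 60.5% of collagen windows and 35.7% of all windows, the CCAAT box in 34.2% and 37.4%, and the TATA box in 13.2% and 13.6%. Such a match says only that the letters are there. The Col1a2 window follows the RefSeq start and lies inside the gene as annotated by GENCODE M21, which begins at chr6:4504814. Col1a1, Col5a2, Col12a1, Col14a1, Col2a1, Col4a3, Col22a1 and Col9a3 had no entry.

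Collagen VI, which links cells to the fibrillar matrix, is assembled mainly from its 3 classical chains. Col6a1 had the smallest adjusted p of the family. It stood at 154, 139, 119 and 123 CPM in the control mice and at a lowest of 257, a median of 294 and a highest of 372 CPM in the mice labelled Tbx5 mutant (log2 fold change 1.17 ± 0.116, SE; edgeR adjusted p = 1.13e-05). Col6a2 stood at 115, 131, 91.9 and 106 CPM against a lowest of 167, a median of 229 and a highest of 280 CPM (log2 fold change 1.06 ± 0.147, SE; edgeR adjusted p = 0.000157). Col6a3 stood at 159, 144, 114 and 107 CPM against a lowest of 212, a median of 247 and a highest of 319 CPM (log2 fold change 0.95 ± 0.136, SE; edgeR adjusted p = 0.000176). None of the 3 overlapped between groups. The ratio of Col6a1 to Col6a2 per length was 1.46 ± 0.155 (SD, n = 4) and 1.59 ± 0.172 (SD, n = 6), within the spread (two-sided exact permutation p = 0.219, adjusted p = 0.329). Col6a5 and Col6a6 did not pass the test (edgeR adjusted p = 0.461 and 0.671), and Col6a4 was not tested, with at most 5 reads in any library.

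The largest fold of the 34 genes belonged to Col8a1, a short chain that forms a hexagonal network and is known from vessel walls and heart valves. It stood at 25.3, 30.4, 33.1 and 30.6 CPM in the control mice and at a lowest of 81.8, a median of 106 and a highest of 191 CPM in the mice labelled Tbx5 mutant. Every one of these mice was above every control mouse, and the gene was 3.97-fold higher (log2 fold change 1.99 ± 0.204, SE; edgeR adjusted p = 1.48e-05). Its partner Col8a2 was lower in level, at 3.23 ± 0.685 and 5.76 ± 1.61 CPM, and was called higher with mutant M1 inside the control range (log2 fold change 0.84 ± 0.245, SE; edgeR adjusted p = 0.0179). Without control F1, or within mice of 1 sex by Xist and Ddx3y reads, it was not called. Col10a1, the collagen of growth plate cartilage that shares this short form, had 5.55 ± 0.464 and 4.97 ± 1.14 CPM and did not pass (edgeR adjusted p = 0.54).

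Among the FACIT collagens, Col12a1 was next in fold. Collagen XII binds the surface of collagen I fibrils in tissues under tension. It stood at 13.9, 11.4, 8.00 and 5.14 CPM in the control mice and at a lowest of 21.5, a median of 35.5 and a highest of 44.6 CPM in the mice labelled Tbx5 mutant. The groups did not overlap, at a log2 fold change of 1.87 ± 0.238 (SE; edgeR adjusted p = 7.87e-05), or 3.64-fold. Col16a1 stood at 21.9, 24.2, 16.6 and 20.3 CPM against a lowest of 36.2, a median of 42.2 and a highest of 65.8 CPM (log2 fold change 1.11 ± 0.165, SE; edgeR adjusted p = 0.000253). Col14a1, which like collagen XII coats fibrils, was called with a wider spread, at 145 ± 59.2 and 270 ± 57.4 CPM (log2 fold change 0.90 ± 0.235, SE; edgeR adjusted p = 0.0105). Its 2 control mice labelled male, at 191 and 201 CPM, were about as high as mutant M1 at 195 CPM, and the gene was not called in the mice labelled male alone or in those with Xist reads. Col20a1 went the other way, with 7.54 ± 2.54 and 4.33 ± 0.88 CPM (log2 fold change -0.79 ± 0.225, SE; edgeR adjusted p = 0.0168), and its call held in 21 of 29 alternative fits. It was lost without control M1, without control F1, without mutant M2 and M3, in either sex alone by label or by Xist and Ddx3y reads, and with the replicate block and the length trend removed together. Col9a1, Col9a2, Col9a3, Col19a1 and Col22a1 were not tested. Col9a2 had at most 5 reads in a control library and between 3 and 17 in the others. Col22a1 had at most 2 and 11 reads, Col9a3 at most 6 and 12, Col19a1 at most 2 and 1, and Col9a1 none and at most 1.

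The multiplexins Col15a1 and Col18a1 are basement membrane collagens that carry sugar chains and end in a domain that can be cut off, known as endostatin for collagen XVIII. Col18a1 stood at 32.9, 28.6, 22.7 and 26.4 CPM in the control mice and at a lowest of 38.4, a median of 49.5 and a highest of 67.4 CPM in the mice labelled Tbx5 mutant (log2 fold change 0.92 ± 0.15, SE; edgeR adjusted p = 0.000488), without overlap. Col15a1 stood at 174, 218, 129 and 169 CPM against a lowest of 193, a median of 278 and a highest of 387 CPM (log2 fold change 0.70 ± 0.177, SE; edgeR adjusted p = 0.00871). Control M2 was above mutant M1 at Col15a1, and the gene was not called in the mice labelled male alone, without mutant M2 and M3, or within mice split by Xist and Ddx3y reads.

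Col13a1, a collagen anchored in the cell membrane and known from the junction of nerve and muscle, had the largest fold among the 3 lower genes. It stood at 4.72, 4.47, 3.14 and 4.06 CPM in the control mice and at a lowest of 1.09, a median of 1.41 and a highest of 1.599 CPM in the mice labelled Tbx5 mutant. All 6 of these mice were below all 4 control mice, at a log2 fold change of -1.52 ± 0.211 (SE; edgeR adjusted p = 0.00015). The gene is read thinly, at no more than 33 reads in any library. The other transmembrane collagens tested, Col17a1, Col23a1 and Col25a1, did not pass (edgeR adjusted p = 0.764, 0.148 and 0.0571). Col7a1, which anchors the skin's basement membrane, was also called lower and also rests on few reads, at most 22 per library, with 2.72 ± 0.233 and 1.57 ± 0.354 CPM (log2 fold change -0.78 ± 0.232, SE; edgeR adjusted p = 0.0205). Its call held in 18 of 29 alternative fits. It was lost, among others, by DESeq2, without control F2, with the replicate block, in either sex alone, and with the trend on transcript length removed (log2 fold change -0.52, edgeR adjusted p = 0.104). Col28a1 did not pass (edgeR adjusted p = 0.411).

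Collagen transcripts are long and the groups differed by transcript length, so length was looked at beside these results. The collagens tested had a median length of 6084 bases against 3469 bases over all genes, and across 12951 genes the rank correlation between length and log2 fold change was -0.32, longer genes being lower in the mice labelled Tbx5 mutant. This correlation is across genes, which are not replicates. With the length trend removed, the median log2 fold change of the collagens was 0.86 in place of 0.65, with 18 called higher and 2 lower, and Col7a1 was no longer called. Among the 7208 genes as long as the collagens tested, 6.13% were called higher, and their median log2 fold change was -0.09. Read from their annotated coding sequences, the longest unbroken runs of glycine repeats were 338 repeats in Col1a1, 339 in Col1a2, 344 in Col3a1, 339 in Col5a2, 40 in Col4a1, 66 in Col4a2, 87 in Col6a1, 61 in Col8a1, 44 in Col13a1 and 32 in Col12a1. Genes called higher were thus found among both unbroken and interrupted collagens.

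The genes that make, fold, cut, cross-link or bind collagen were followed as a list of 47, of which 44 were tested. Of these, 11 (25%) were called higher and 0 were called lower, beside 8.5% and 7.16% of all genes tested. The median log2 fold change of the list was 0.30. At an unadjusted p under 0.05, 4 were lower by edgeR, and DESeq2 and limma called 0 lower as well. The calls fell on 7 of 12 genes for processing and cross-linking, 2 of 9 for folding and export, 1 of 13 for modification of the chains and 1 of 10 receptors. The shares for modification and receptors, 7.69% and 10%, lay near the 8.5% of all genes tested.

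**Figure D5:**
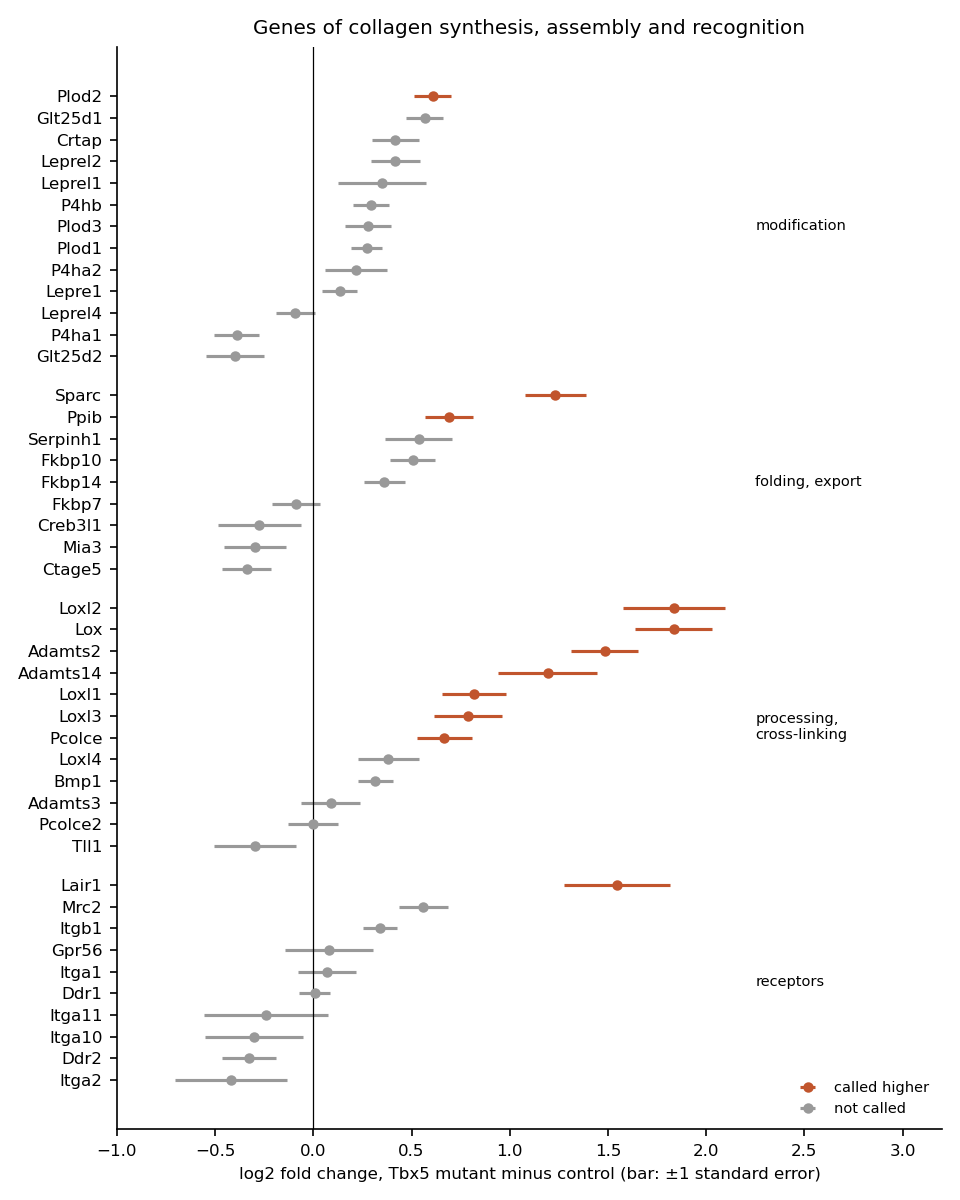
Log2 fold change of 44 genes that modify, fold, process or bind collagen (x axis, mice labelled Tbx5 mutant minus control, with 1 standard error), by step from top to bottom. The 11 genes called higher lie between 0.61 and 1.84, and none is called lower.

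In the endoplasmic reticulum, prolines and lysines of the chains are hydroxylated before the helix folds. Plod2, the lysyl hydroxylase that modifies the ends of the chains where cross-links form, had 64.0 ± 5.61 and 97.4 ± 9.58 CPM and was called higher (log2 fold change 0.61, edgeR adjusted p = 0.000365). P4hb, the subunit shared by prolyl hydroxylases, differed with a smaller fold, at 450 ± 20.4 and 551 ± 40.1 CPM (log2 fold change 0.29, edgeR adjusted p = 0.0259). P4ha1, a catalytic subunit of the same enzyme, was the 1 listed gene past the adjusted p in the other direction (log2 fold change -0.39, edgeR adjusted p = 0.018). Of the genes for folding and export, Sparc, a collagen-binding protein of the matrix, had 383 ± 48.1 and 898 ± 197 CPM (log2 fold change 1.23, edgeR adjusted p = 7.44e-05). Ppib, the isomerase that turns prolines during folding, had 23.4 ± 3.82 and 38.0 ± 4.36 CPM (log2 fold change 0.69, edgeR adjusted p = 0.000964). Serpinh1, the collagen chaperone HSP47, had 403 ± 54.3 and 585 ± 147 CPM and differed with a fold under the threshold (log2 fold change 0.54, edgeR adjusted p = 0.0282).

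Outside the cell, end pieces are cut from procollagen and lysyl oxidases then cross-link the fibrils. Lox stood at 8.29, 9.76, 4.70 and 6.23 CPM in the control mice and at a lowest of 20.7, a median of 24.5 and a highest of 35.5 CPM in the mice labelled Tbx5 mutant (log2 fold change 1.83 ± 0.197, SE; edgeR adjusted p = 1.96e-05). Loxl2 stood at 24.3, 20.02, 8.62 and 10.96 CPM against a lowest of 42.6, a median of 55.5 and a highest of 79.8 CPM (log2 fold change 1.84 ± 0.261, SE; edgeR adjusted p = 0.000176). Both were apart in every mouse. Loxl1 and Loxl3 were called at log2 fold changes of 0.82 and 0.79. Adamts2, which cuts the amino end piece of fibrillar procollagen, had 48.8 ± 13.3 and 136 ± 23.2 CPM (log2 fold change 1.48, edgeR adjusted p = 3.61e-05), and its relative Adamts14 was called at 1.19. Pcolce, which speeds the cut of the carboxyl end piece, was called at 0.67.

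The receptors of collagen had 1 call. Ddr2, a receptor kinase of fibroblasts for fibrillar collagen, had 94.6 ± 21.8 and 75.2 ± 9.42 CPM and did not pass (log2 fold change -0.33, edgeR adjusted p = 0.0866). Itgb1, the beta chain shared by the collagen-binding integrins, differed with a smaller fold, at 589 ± 12.0 and 745 ± 34.5 CPM (log2 fold change 0.34, edgeR adjusted p = 0.00942). Lair1, an inhibitory collagen receptor of leukocytes, was the receptor called higher, at 2.66 ± 1.15 and 7.76 ± 1.83 CPM (log2 fold change 1.55, edgeR adjusted p = 0.000817).

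Marker lists of the cells that may hold these transcripts are given beside them. Of 6 fibroblast markers, 0 were called higher by edgeR and 1, Gsn, was called lower, and the median log2 fold change of the list was 0.15. Their summed level was 7461 to 9147 CPM in control mice and 4925 to 7463 CPM in the others, and most of it was Gsn, at 5675 ± 677 and 3344 ± 789 CPM. Pdgfra was past the adjusted p with a lower value under the fold threshold (log2 fold change -0.40). Tcf21, Lum and Dpt had log2 fold changes of 0.57, 0.45 and 0.31 and did not pass (edgeR adjusted p = 0.0618, 0.0558 and 0.149), and Dcn had 1885 ± 139 and 1870 ± 213 CPM. Of 6 markers of activated fibroblasts, 4 were called higher (Postn, Cthrc1, Acta2 and Tnc). The list summed to 213 to 364 CPM in control mice and 904 to 1470 CPM in the mice labelled Tbx5 mutant. On average most of this sum was Postn, at 155 ± 83.6 and 777 ± 214 CPM. Fap and Comp did not pass (edgeR adjusted p = 0.992 and 0.903). Acta2 is also a smooth muscle marker, and with Tagln it made 2 of 8 called higher in that list, whose sum was 312 to 378 and 391 to 861 CPM. Endothelial markers summed to 1173 to 1629 and 1352 to 1685 CPM with 0 of 7 called by edgeR, although 2 of them were past the adjusted p. All 5 cell cycle markers were called higher, at 11.5 to 26.1 and 71.1 to 239.8 CPM in sum, as were the 3 leukocyte markers tested, at 128 to 186 and 208 to 293 CPM for their list. Of the fibroblast, activated fibroblast, smooth muscle and endothelial markers, none was at 0 reads in any library. Chondrocyte markers, for the cartilage collagens, summed to no more than 19.3 CPM. Sox9 made most of it, at 9.73 ± 4.57 and 12.5 ± 4.79 CPM. Acan had at most 4 reads in a library, Hapln1 at most 2, and Matn3 was at 0 in all 10 libraries. Adipocyte markers summed to 20.8 CPM in mutant M2 and to at most 4.14 CPM elsewhere. The part of any of these cells in the collagen values was not tested.

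Whether the difference between groups depended on sex was tested as an interaction, which no collagen of the 34 passed by edgeR (lowest adjusted p = 0.104), beside 0.29% of all genes. At an unadjusted p under 0.05 there were 6, and limma found 0 past the adjusted p. With the sex labels of the control mice exchanged, as their Xist reads would place them, 0 passed as well, beside 1 of all 13084 genes. With the sex labels as given, leaving out mutant M2 made it 1, Col14a1 (edgeR adjusted p = 0.0191). That fit was not run with the labels exchanged. With no mouse left out, the log2 interaction of Col14a1 was -1.24 with the labels as given (edgeR adjusted p = 0.104). It had the other sign, 0.89, with the control labels exchanged (edgeR adjusted p = 0.374). Within the mice that carried Xist reads, 15 collagens were called higher, and within those that carried Ddx3y reads 15, each with 2 control mice and 3 of the others. These 2 splits, and the fit that left out mutant M2 and M3 together, which called 16 higher, were chosen after the data were seen. The labels number the mice within each sex and give no litter or preparation day, so the p-values measure the spread between these libraries.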

How the data were processed

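The labels name both an mRNA kit and ribosomal RNA removal for these single-end right atrial libraries, after globin removal. The submitters' processing notes name FastQC, TopHat2 2.0.11, featureCounts, DESeq2 and build mm10. The authors deposited 1 table, with raw counts per gene and library, and a normalized signal (counts over a DESeq2 size factor). It also holds the authors' own comparison as log2 fold change, Wald score, p-value and ratio, which was not used. No per-library column was left unmatched.

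Counts were tested with edgeR 4.0.16 (R 4.3.3) over all 10 libraries, with its expression filter, TMM scaling, no covariates and a prior count of 0.125. Each standard error is the size of the log2 change divided by the root of its F statistic. The thresholds are those the study's methods use for coding genes, applied there to left atrium with DESeq. Chain ratios were compared by exact permutation over mice (scipy 1.17.1). The fits were tested on simulated data. These held far fewer changed genes than differed here, so they do not cover so broad a change. Gene lengths came from GENCODE M21. Limits of precision cover counting error only: 3 counts are worth 0.4 to 0.817 CPM, and Rn45s leaves mutant M3 with 3484550 counts.

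Full values are given for up to 12 called collagens by adjusted p and for 9 chains of collagens I, III, IV, VI, XV and XVIII, and for called collagen-processing genes and 6 fixed ones. Members and lists were chosen with earlier results of these data known. Alternatives were other scalings, filters, prior counts, DESeq2 1.42.0, limma 3.58.1, sex, length, GC and replicate terms, and libraries left out.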

Additional observations from a re-analysis of the deposited data

Results flagged for a closer look

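In 6 of 106 groups of values examined, 1 mouse lay far from the others of its group, where about 1 in 20 groups would by chance. Mutant M2 was the high mouse in 5 of them. Its collagen share was 1.38% of reads against 0.802% to 0.952% in the other 5 mice of its group. Its Col3a1 level was 4962 CPM (34073 reads) against 2962 to 3454 CPM. Its Col16a1 level was 65.8 CPM (452 reads) against 36.2 to 43.2 CPM. Among the genes that act on collagen, its Lox level was 35.5 CPM (244 reads) against 20.7 to 25.4 CPM, and its Sparc level was 1289 CPM (8849 reads) against 760 to 899 CPM. Each of these genes was also above all control mice in the other 5 mice. Control F1 was high for Col6a5, at 7.37 CPM (47 reads) against 1.35 to 2.15 CPM in the other 3 control mice, and Col6a5 did not pass the test between groups.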

How the results depend on the processing

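Across 30 alternative fits, 14 of the 17 collagens called higher and 1 of the 3 called lower, Col13a1 (29 fits), kept their call in each fit that tested them. Of the 16 collagens with full values, chosen in part by smallest adjusted p, 15 stayed on their side of the adjusted p. Col15a1 did not, in the mice labelled male alone (log2 fold change 0.53) and in those with Ddx3y reads (0.95). The called collagens outside those 16 were less steady. They were past the adjusted p in 29 of 30 fits (Col14a1), 25 of 29 (Col8a2), 21 of 29 (Col20a1) and 19 of 29 (Col7a1). The cause was not tested. The count called lower (3) was 0 at a mean count of at least 50, where the 3 genes were left out as too low, and 1 in the mice labelled male alone, in those labelled female alone, at an adjusted p under 0.01, at a fold over 2, and, in fits chosen after the data were seen, without mutant M2 and M3, in mice with Xist reads and in mice with Ddx3y reads. The collagen-processing genes called lower (0) were 1 in the mice labelled male alone and 1 with no fold threshold, and those called higher (11) were 6 at a fold over 2 and 22 with no fold threshold. With each library left out in turn, the collagens called higher were 17 to 18, those called lower 2 to 4 and those past the adjusted p 20 to 23. The collagen-processing genes called higher were 10 to 13. The share of all genes called is not given for these alternative fits. For the sex interactions, only mutant mice were left out, with the sex labels as given, and these were 0 to 1.

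With the replicate block the collagens called higher were 17 and those called lower 2, and with the length trend removed too they were 18 and 1. Same-numbered mice did not deviate together (correlations -0.0233 to 0.049 over 4 pairs), so the numbers were not taken as pairs. Without a library, the ratio of Col4a1 to Col4a2 differed by 0.188 to 0.279. Depth limits Col13a1, Col7a1 and Col8a2, which had at most 33, 22 and 51 reads in a library. It also limits Col10a1, Col11a2, Col25a1, Col17a1 and Col28a1, which did not pass, at no more than 46, 36, 33, 22 and 18 reads. Adamts14, called higher, had at most 45.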
